A study of Mus musculus with 18 samples.

Results

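The genes described here encode peptides of the arcuate nucleus that set appetite and drive reproduction, with a transcription factor of the same neurons. The list was chosen by name and held 7 genes, Npy, Agrp, Pomc, Cartpt, Kiss1, Tac2 and Isl1. For 6 of them, out of 19937 genes in all, a probeset assigned to that gene alone was available, 1 for each gene, and Agrp was not analysed here. The data are 18 arrays of RNA from the hypothalamus of mice that were wild type or mutant for Wfs1, whose product wolframin is a membrane glycoprotein of the endoplasmic reticulum. The strain is 129SV per the sample labels and 129S6 per the text of the series. The labels used here give no age, sex or treatment, and they do not describe the mutant allele or tell if the arrays come from separate animals. The p-values therefore rest on the spread among arrays alone, and that spread may be partly technical.

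The 2 genotype labels compared here are the ending of the title and a genotype field. The opening words of each title also name a genotype, and on every array it was that of the field. Here "ko/KO" means the title ending ko with the genotype field KO. The labels agreed on 9 arrays, 5 ko/KO and 4 wt/WT, and contradicted each other on the other 9, 5 ko/WT and 4 wt/KO. Wfs1 itself lay between 7.86 and 8.72 log2 units on the ko/KO arrays, 7.89 and 8.41 on wt/WT, 7.98 and 8.56 on ko/WT and 7.92 and 8.61 on wt/KO, so all 4 groups overlapped. It is not known here whether its probeset lies in the altered part of the gene. Differences are therefore given between labels and not between genotypes. A number in the title, whose meaning is not given, was lower on every ko array than on every wt array, so the ending and what that number stands for cannot be told apart. On 1 array, ko/WT 4, Xist was 5.93 log2 units against 10.31 to 10.79 on the others, and on wt/WT 3 the choroid plexus gene Ttr was 12.8 against 8.01 to 10.62. The 3 Y-linked genes measured stayed below 5.81, the lowest lower quartile of any array, on every array, ko/WT 4 included. Sex was not tested. Array medians over all probesets ran from 7.1 to 7.19 log2 units. Of the defining markers of the hypothalamus, Pmch was at 11.36 or more and Oxt at 10.02 or more on every array, while Rax stayed between 6.52 and 6.94. Prl, the hormone of pituitary lactotrophs, was at most 5.78 and Gh at most 6.92. Of the other pituitary hormone genes Tshb reached 5.36, Fshb 6.36 and Cga 6.44, while Lhb ran from 6.89 to 7.53.

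The arcuate nucleus lies at the base of the hypothalamus beside the median eminence, where circulating hormones reach neurons. One population makes neuropeptide Y and agouti-related peptide and drives feeding. A neighbouring population makes proopiomelanocortin, the precursor of alpha-MSH, and many of its cells also make the CART peptide. Both answer to leptin and insulin in opposite ways. A separate population makes kisspeptin, neurokinin B (encoded in mouse by Tac2) and dynorphin, and it paces the release of gonadotropin-releasing hormone. Isl1 encodes a LIM homeodomain factor that is needed in development for the expression of Pomc and other arcuate peptides. Each of these genes is also expressed outside the arcuate nucleus. Npy is made by interneurons of the cortex and striatum, Pomc by the pituitary, Tac2 in the habenula and extended amygdala, and Isl1 by cholinergic neurons of the striatum.

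Because Isl1 was measured beside the peptide genes, the start-site windows of all 6 were searched for 3 short motifs on both strands. The windows are those of RefSeq on GRCm38.p6, with 250 bases before and 50 after the start, and all 6 genes had an entry. Npy and Pomc are shown as the peptides of opposite action on feeding, and Tac2 as the gene of the kisspeptin neurons with a match. Capitals mark TATAAA, the TATA box, and TAAT, the core bound by many homeodomain proteins, on either strand, and all 3 windows are on the plus strand (Npy chr6:49822460-49822759, Pomc chr12:3954695-3954994, Tac2 chr10:127724228-127724527).
Npy: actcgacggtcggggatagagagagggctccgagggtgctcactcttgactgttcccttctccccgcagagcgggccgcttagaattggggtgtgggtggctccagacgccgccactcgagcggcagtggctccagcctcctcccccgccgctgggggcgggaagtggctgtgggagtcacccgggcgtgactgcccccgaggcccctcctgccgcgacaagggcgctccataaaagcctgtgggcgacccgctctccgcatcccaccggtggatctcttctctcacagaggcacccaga
Pomc: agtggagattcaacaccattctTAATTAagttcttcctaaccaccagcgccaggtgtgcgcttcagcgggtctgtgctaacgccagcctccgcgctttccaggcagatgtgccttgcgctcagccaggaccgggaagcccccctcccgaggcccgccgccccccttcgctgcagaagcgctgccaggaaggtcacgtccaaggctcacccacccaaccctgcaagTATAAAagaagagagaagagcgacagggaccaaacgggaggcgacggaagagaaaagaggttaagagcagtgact
Tac2: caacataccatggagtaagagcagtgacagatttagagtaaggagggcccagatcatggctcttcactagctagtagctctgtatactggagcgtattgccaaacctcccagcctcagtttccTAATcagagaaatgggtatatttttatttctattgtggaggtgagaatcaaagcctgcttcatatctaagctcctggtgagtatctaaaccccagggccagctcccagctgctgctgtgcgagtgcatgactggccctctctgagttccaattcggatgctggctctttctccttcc
The Pomc window held 1 TATAAA, beginning 25 bases before the start, and 2 TAAT matches on opposite strands that share bases. The Tac2 window held 1 TAAT, and the Npy window held neither motif. The Isl1 window, not printed, held 2 TAAT, and those of Cartpt and Kiss1 held neither motif. The E box CANNTG had 2 matches in Pomc and 1 each in Cartpt, Tac2 and Isl1. Of all 32851 windows of this length 13.6% held TATAAA, 58.0% TAAT and 72.3% CANNTG. A match is a description of the letters and shows no binding.

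Npy, the gene of the feeding peptide, had the widest range of the 6. Where the labels agreed, its log2 level was 8.69, 9.52, 9.54, 9.79 and 9.42 on the ko/KO arrays and 9.34, 9.66, 9.58 and 8.82 on the wt/WT arrays. Where they contradicted each other, it was 9.69, 9.40, 9.71, 9.13 and 9.25 on the ko/WT arrays and 9.32, 9.92, 9.38 and 9.46 on the wt/KO arrays. The 4 groups overlapped, and a low array stood in each of both agreeing groups, ko/KO 1 and wt/WT 4. The range from 8.69 to 9.92 is 2.35-fold, and the SD over the 18 arrays, 0.31 log2 units, was above that of 98.6% of all genes. By title ending the mean was 9.41 ± 0.33 (SD, n = 10) with ko and 9.44 ± 0.32 (SD, n = 8) with wt, a difference of -0.021 (SE 0.14, limma adjusted p = 0.981).

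Pomc, the gene of the satiety precursor, varied less, and its levels lay not far above the array medians of 7.1 to 7.19. Its log2 level was 7.50, 7.95, 7.63, 7.50 and 7.39 on the ko/KO arrays and 7.61, 7.42, 7.52 and 7.60 on the wt/WT arrays. It was 7.43, 7.47, 7.37, 7.34 and 7.61 on the ko/WT arrays and 7.52, 7.52, 7.98 and 7.30 on the wt/KO arrays. A pair of arrays stood above all others, ko/KO 2 and wt/KO 3, which carry different title endings, and the other 16 lay between 7.30 and 7.63. By ending the difference was -0.040 (SE 0.082, limma adjusted p = 0.931). By field it was 0.10 (SE 0.079, adjusted p = 0.742), with an SD of 0.23 over the 9 KO arrays and 0.10 over the 9 WT arrays.

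Cartpt, whose CART peptide curbs feeding, was 9.34, 9.75, 9.42, 9.60 and 9.40 log2 units on the ko/KO arrays and 8.77, 9.55, 9.34 and 9.39 on the wt/WT arrays. It was 9.59, 9.33, 9.68, 9.28 and 9.20 on the ko/WT arrays and 9.74, 9.32, 9.49 and 9.75 on the wt/KO arrays. One array, wt/WT 1, was low and the groups otherwise overlapped. By field the mean was 9.53 ± 0.18 (SD, n = 9) with KO and 9.35 ± 0.27 (SD, n = 9) with WT, a difference of 0.19 (SE 0.097, limma adjusted p = 0.694), and without wt/WT 1 it was 0.11. By ending the difference was 0.040 (SE 0.11, adjusted p = 0.947).

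Kiss1, which encodes the kisspeptins that activate the neurons of gonadotropin-releasing hormone, had levels near the array medians. They were 7.04, 7.45, 7.14, 7.1 and 6.99 log2 units on the ko/KO arrays and 7.17, 7.39, 7.33 and 7.19 on the wt/WT arrays. They were 7.27, 7.34, 7.18, 7.09 and 7.08 on the ko/WT arrays and 7.0, 7.02, 7.05 and 7.49 on the wt/KO arrays. The highest and lowest arrays of the series, wt/KO 4 and ko/KO 5, both carry the field KO, and the range is 1.41-fold. The difference was -0.037 by ending (SE 0.073, limma adjusted p = 0.927) and -0.084 by field (SE 0.070, adjusted p = 0.755).

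Tac2, the gene of neurokinin B, had a range of 2.06-fold, beside 1.97-fold for Cartpt. Its log2 level was 8.78, 8.73, 8.43, 8.62 and 8.64 on the ko/KO arrays and 8.42, 8.39, 9.0 and 8.07 on the wt/WT arrays. It was 8.49, 8.85, 9.04, 8.64 and 8.93 on the ko/WT arrays and 8.67, 8.23, 9.11 and 8.10 on the wt/KO arrays. With the ending ko every array lay between 8.43 and 9.04, while the arrays with the ending wt reached below and above that range, from 8.07 to 9.11. The means were 8.72 ± 0.19 (SD, n = 10) and 8.50 ± 0.39 (SD, n = 8), and the difference of 0.22 had a 95% interval from -0.044 to 0.48 (SE 0.13, limma adjusted p = 0.884). By field it was -0.058 (SE 0.13, adjusted p = 0.908).

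Isl1, the homeodomain factor, was 8.13, 7.89, 8.34, 8.23 and 8.23 log2 units on the ko/KO arrays and 8.04, 8.31, 8.01 and 7.96 on the wt/WT arrays. It was 8.02, 7.86, 8.10, 7.94 and 8.30 on the ko/WT arrays and 8.31, 8.36, 8.13 and 8.13 on the wt/KO arrays. On 8 of 9 field KO arrays the level was 8.13 or more, and on 7 of 9 field WT arrays 8.10 or less. The field means were 8.19 ± 0.15 (SD, n = 9) and 8.06 ± 0.15 (SD, n = 9), a difference of 0.13 that did not pass the threshold (SE 0.068, limma adjusted p = 0.694). By ending the difference was -0.052 (SE 0.073, adjusted p = 0.906).

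**Figure D1:**
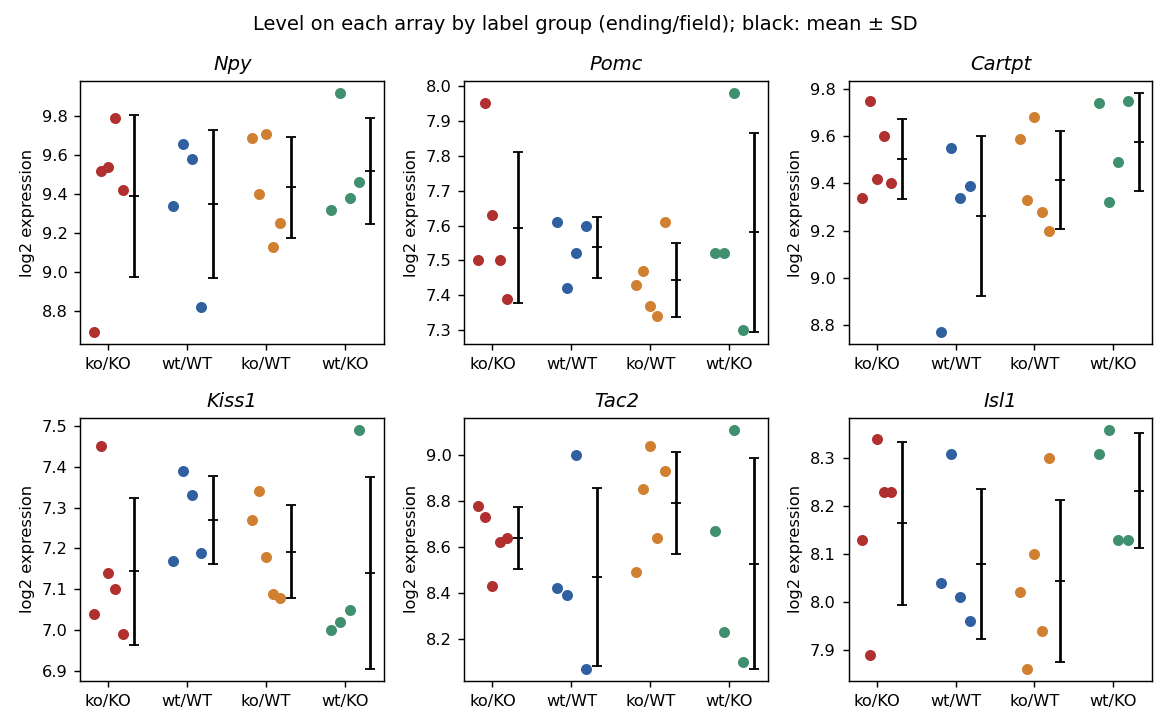
Log2 expression (y axis of each panel) of the 6 measured genes on the 18 arrays in the 4 label groups (x axis, title ending before the field), 1 point per array, with the mean ± SD of each group in black. The groups overlap in every panel, and single arrays such as wt/WT 1 for Cartpt (8.77) stand apart from their group.

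Of the 6 genes 0 passed the adjusted p threshold of 0.05 by title ending, by genotype field or where the labels agree, and the share of all 19937 genes called was 0% in each comparison. At an unadjusted p under 0.05 the count was also 0 of 6 in each, where 4.63% of all genes were reached by ending (1.87% higher and 2.76% lower with ko), 6.95% by field (2.49% higher and 4.46% lower with KO) and 11.1% on the agreeing arrays (2.9% higher and 8.22% lower in ko/KO). On the 5 ko/KO and 4 wt/WT arrays the largest difference was that of Cartpt at 0.24 (SE 0.14, adjusted p = 0.512), which was 0.075 without wt/WT 1. There Tac2 differed by 0.17 (SE 0.15), Kiss1 by -0.13 (SE 0.098), Isl1 by 0.084 (SE 0.10), Pomc by 0.057 (SE 0.11) and Npy by 0.042 (SE 0.20). An interaction term tested whether the effect of the ending depended on the field, and its limma adjusted p ranged from 0.940 for Cartpt to 0.987 for Isl1. The 95% intervals by ending reached from -0.30 to 0.26 for Npy and from -0.21 to 0.13 for Pomc, so differences within those bounds are not excluded by these arrays.

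Pathway genes around the peptides were counted in the same fits, and 0 passed the adjusted threshold in either direction by ending, by field or on the agreeing arrays. Of 19 receptors of these peptides 10 had the higher mean on ko arrays and 9 the lower (median 0.00080, all genes 0.0030). The members with the smallest p were Npy4r, a receptor of pancreatic polypeptide, at -0.14 (SE 0.067) and the delta opioid receptor gene Oprd1 at -0.11 (SE 0.058). Of 15 receptors through which hormones and transmitters reach arcuate neurons 12 had a higher mean (median 0.039), among them the insulin receptor gene Insr at 0.10 (SE 0.062) and the serotonin receptor gene Htr2c at 0.083 (SE 0.053). Both of these differences had the same adjusted p of 0.884.

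Enzymes that cut and modify peptide precursors moved little by ending, with 7 of 12 higher (median 0.0089), Ctsl, a cathepsin, at 0.060 (SE 0.051) and Pam, which amidates peptides, at -0.032 (SE 0.048). Of 18 arcuate transcription factors 12 had a lower mean with the ending ko (median -0.042). Bsx, a homeobox gene needed in mouse for full Npy and Agrp expression, differed by -0.15 (SE 0.048, limma adjusted p = 0.884), and Hmx2, a homeobox gene of growth hormone-releasing neurons, by -0.15 (SE 0.065). Of 12 genes of the reproductive axis 7 were lower (median -0.020), with Sema3a, a guidance cue for migrating neurons, at 0.12 (SE 0.062) and the prokineticin receptor gene Prokr2 at 0.078 (SE 0.061). Of 17 feeding peptides of other hypothalamic neurons 11 were lower (median -0.050), including Qrfp at -0.16 (SE 0.053) while Cck was at 0.15 (SE 0.064). By field, 10 of 12 processing enzymes and 10 of 18 transcription factors had the higher mean with KO, with medians of 0.036 and 0.0044 beside -0.0056 over all genes.

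Genes of other arcuate neurons split by label. The list was chosen by name and measured in dissected hypothalamus, so signal from outside the arcuate nucleus was not separated. It includes Pdyn, the gene of the dynorphin that the kisspeptin neurons make, so it is not limited to neurons apart from those of the members. Of 15 measured, 5 were higher on average with ko by ending (median -0.039) and 14 with KO by field (median 0.12), where 51.8% and 47.2% of all genes were. On the agreeing arrays 13 of the 15 were higher in ko/KO, beside 49.5% of all genes. Ghrh, which releases growth hormone, differed by -0.082 by ending (SE 0.055) and the retinoic acid-binding protein gene Crabp1 by -0.091 (SE 0.063). At an unadjusted p under 0.05 the field reached 4 of the 15 upward and 0 downward, beside 2.49% and 4.46% of all genes, and 0 passed the adjusted threshold. The mean level of these 15 genes rose with the SD of all probesets on each array (r = 0.71). The part of that SD in the difference by field was not tested. Markers of other cells moved along the same labels, with 0 called. Of 12 choroid plexus markers 11 were lower on average with ko by ending, 11 with KO by field and 12 in ko/KO on the agreeing arrays. There 7 of the 12 were lower at an unadjusted limma p under 0.05, beside 8.22% of all genes. On the agreeing arrays wt/WT 3, the array high in Ttr, is in the other group. Of 13 oligodendrocyte markers 13 were higher by ending, 9 by field and 13 on the agreeing arrays (medians 0.077, 0.012 and 0.094). Their part in the values of the arcuate genes was not tested.

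The relation to Wfs1 was described on both sides of 8.2 log2 units. On 10 arrays Wfs1 lay between 7.86 and 8.07 and on 8 between 8.36 and 8.72. These sides match neither label, and whether they match the true genotypes is not known. The lower side held 2 ko/KO, 2 ko/WT, 3 wt/KO and 3 wt/WT arrays. Because the values fall into separate clusters, no correlation over all arrays is given, and because the sides were made from a measured level, they were not tested against each other.

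Npy was between 9.32 and 9.92 (median 9.62) on the arrays low in Wfs1 and between 8.69 and 9.54 (median 9.32) on those high in Wfs1. Every array above 9.54 was on the low side and every array below 9.32 on the high side, and the ranges overlapped from 9.32 to 9.54. Pomc was between 7.30 and 7.61 (median 7.46) on the low side and between 7.34 and 7.98 (median 7.60) on the high side, which held the 2 highest arrays. Cartpt ran from 8.77 to 9.75 (median 9.57) and from 9.20 to 9.75 (median 9.37) in the same order. For Kiss1 the ranges were 6.99 to 7.49 (median 7.17) and 7.04 to 7.45 (median 7.12). Tac2 covered 8.10 to 9.04 (median 8.56) and 8.07 to 9.11 (median 8.76), nearly the same span. Isl1 was 8.01 to 8.36 (median 8.18) and 7.86 to 8.34 (median 8.04), and the 4 lowest arrays were on the high side.

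Within each side the level of a member was compared with that of Wfs1, 12 relations in all, and 0 passed after adjustment (lowest adjusted p = 0.780, permutation tests, 0 at an unadjusted p under 0.05). On the low side Npy had r = -0.17 and rho = -0.097 (n = 10, permutation p = 0.643 and 0.792), and r = -0.63 without ko/KO 5 and wt/WT 3, the arrays farthest from the median of Wfs1 there. On the high side it had r = -0.083 and rho = -0.096 (n = 8, exact permutation p = 0.832 and 0.825), and r = 0.35 without ko/KO 1 and ko/KO 2, the farthest on that side. Cartpt had the highest r on the high side, 0.56, with rho = 0.47 (n = 8, exact permutation p = 0.137 and 0.246), and its r was 0.59 without the 2 arrays farthest from the median of Wfs1. Its rho of 0.64 on the low side had p = 0.052 (n = 10, permutation test, adjusted p = 0.621).

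**Figure D2:**
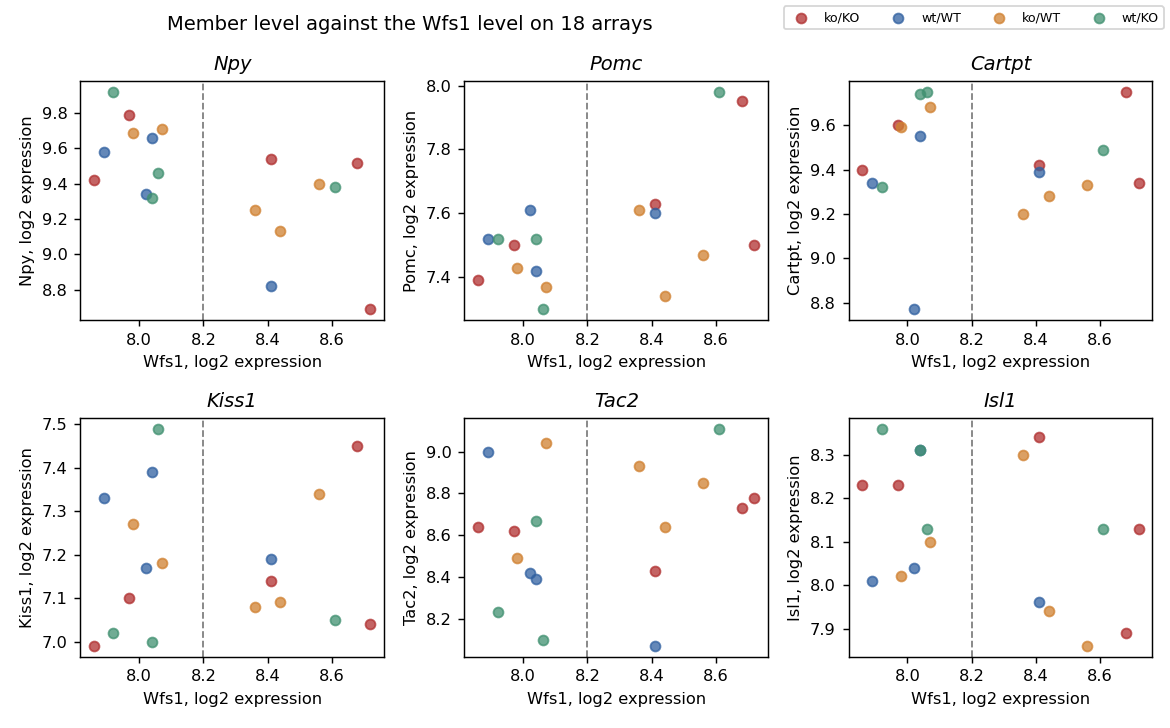
Log2 expression of each gene (y axis) against that of Wfs1 (x axis) on 18 arrays coloured by label group, with a dashed line at 8.2 log2 units, where coinciding points overlie each other. Arrays with Npy above 9.54 lie left of the line and those with Npy below 9.32 right of it. The members show no correlation with Wfs1 past the threshold within a side.

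The 6 genes did not rise and fall together. Over 18 arrays the 15 pairs had Pearson r from -0.47 to 0.30, with a median of 0.0038, 8 positive and 7 negative. By permutation test 0 pairs passed after adjustment over the 15 (lowest adjusted p = 0.717) and 0 had an unadjusted p under 0.05. Kiss1 and Isl1 had the r farthest from 0, at -0.47 (p = 0.051) with rho = -0.51 (p = 0.032, adjusted p = 0.473), and r was -0.44 without the 2 arrays farthest from the median of Kiss1 and -0.28 without those farthest from the median of Isl1, ko/WT 2 and ko/KO 2. It was -0.40 within the agreeing arrays and -0.54 within the contradicting arrays (n = 9 each, exact permutation p = 0.279 and 0.137). With the SD of all probesets on each array removed by regression, a step chosen after seeing the data, r was -0.32. The pair farthest from 0 was then Cartpt with Kiss1 at 0.53, and 0 pairs passed after adjustment.

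Npy and Cartpt, genes of opposite action on feeding, had r = 0.29 and rho = 0.38 (permutation p = 0.239 and 0.122), with r = 0.32 and 0.34 without the 2 arrays farthest from the median of either gene. Npy and Pomc had r = -0.076 and rho = -0.17 (permutation p = 0.767 and 0.493), with r = -0.099 and -0.19 on leaving out arrays in the same way. Pomc and Cartpt, which many arcuate neurons share, had r = -0.030 and rho = -0.16 (permutation p = 0.90 and 0.517). Without wt/KO 3 and ko/KO 2, the arrays high in Pomc, r was -0.52 (permutation p = 0.037, not adjusted), and without wt/WT 1 and ko/KO 2, the arrays farthest in Cartpt, it was -0.22. Kiss1 and Tac2, made by the same arcuate neurons, had r = -0.20 and rho = -0.18 (permutation p = 0.433 and 0.459), and r became -0.034 without the 2 arrays farthest from the median of Kiss1 and 0.035 without those farthest in Tac2. None of these 4 pairs passed over the 18 arrays.

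Isl1 was compared with the peptides it helps to specify. With Npy it had r = 0.30 and rho = 0.27 (permutation p = 0.223 and 0.276), and with Pomc r = -0.11 and rho = 0.090 (permutation p = 0.658 and 0.719). The relation with Pomc had opposite signs in both sets of 9 arrays, -0.63 where the labels agreed (exact permutation p = 0.049) and 0.28 where they contradicted (exact permutation p = 0.503), and without the 2 arrays high in Pomc it was 0.22 over the other 16.

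**Figure D3:**
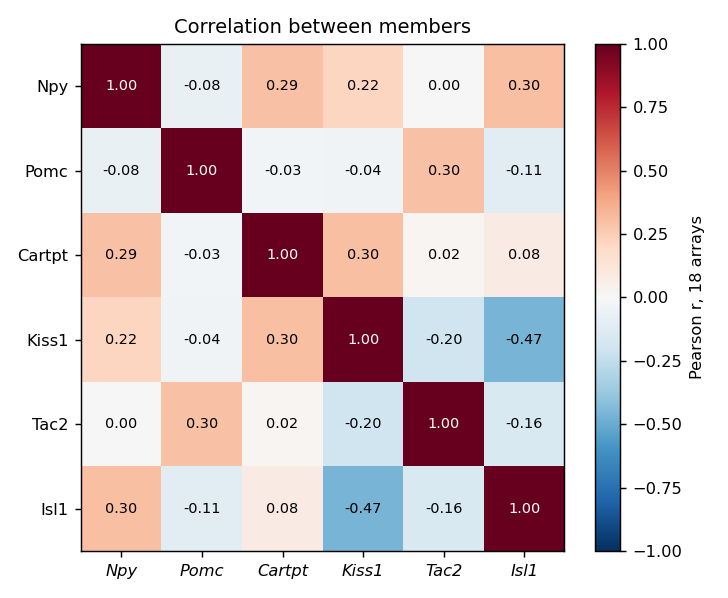
Pearson correlation over 18 arrays between the levels of each pair of genes (both axes), printed in each cell and shown by colour from -1 (blue) to 1 (red). The largest value between different genes is 0.30 for Npy with Isl1 and the lowest is -0.47 for Kiss1 with Isl1.

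Each gene was then set against the mean level of 12 lists of markers, 72 relations. By permutation test 2 passed after adjustment, both of Kiss1, and 11 had an unadjusted p under 0.05. Kiss1 rose with the pituitary list, r = 0.89 and rho = 0.89 (permutation p = 1e-05, the smallest the resamples can give, and 2e-05, adjusted p = 0.00072 and 0.0014). It fell with the astrocyte list, r = -0.75 and rho = -0.75 (permutation p = 0.00041 and 0.00058, adjusted p = 0.015 and 0.017). Without the 2 arrays farthest from each list's median r was 0.90 and -0.62, and for Kiss1 with astrocyte markers r was no longer called (adjusted p = 0.156). The sets of 9 gave 0.92 and 0.86 for the pituitary list and -0.84 and -0.77 for the astrocyte list.

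Of the 12 pituitary genes 11 had a positive r with Kiss1, from 0.25 for Tshb to 0.82 for the transcription factor gene Pax7, and Trhr had -0.55. Of the hormone genes Prl ran from 5.12 to 5.78, Tshb from 4.82 to 5.36 and Cga from 5.31 to 6.44, beside array lower quartiles of 5.81 to 6.0, while Lhb ran from 6.89 to 7.53. Summed over the 12 genes the list ran from 76.41 to 79.59 log2 units with the ending ko and from 76.29 to 79.81 with the ending wt. Pomc, which the pituitary also makes, had r = -0.069 with the same list. Of the 11 astrocyte genes 10 had a negative r with Kiss1, the lowest -0.67 for the gap junction gene Gja1, and the list's sum ran from 112.17 to 114.91 with the ending ko and from 112.09 to 114.51 with wt.

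Array-wide measures moved with Kiss1 as well, in relations chosen after seeing the data. Kiss1 had r = 0.74 and rho = 0.80 with the lower quartile of all probesets on the array (permutation p = 0.00036 and 0.00014, adjusted over 12 relations p = 0.0043), and r = 0.69 without the 2 arrays farthest from its median. With the SD of all probesets on the array it had r = -0.64 and rho = -0.69 (permutation p = 0.0039 and 0.0021, adjusted p = 0.024), and -0.46 without wt/WT 2 and ko/KO 2. Of the 12 lists 3 passed with that SD after adjustment, astrocyte markers with r = 0.84, genes of other arcuate neurons with 0.71 and pituitary markers with -0.66 (permutation tests, adjusted p = 0.0017, 0.0056 and 0.0097). With the array SD removed by regression, Kiss1 had r = 0.80 with the pituitary list (adjusted p = 0.0094) and -0.50 with the astrocyte list (adjusted p = 0.261). The lower quartile, whose r with Kiss1 was farther from 0 than that of the SD, was not removed in this way. The part of these array measures in the level of Kiss1 was not tested further. Isl1 had r = 0.38 and rho = 0.58 with the array SD (permutation p = 0.126 and 0.013, adjusted p of r 0.379), and r = 0.68 without wt/WT 2 and ko/KO 2. For Npy, Pomc, Cartpt and Tac2 r with the array SD lay between -0.15 and 0.25. Without the same 2 arrays it was 0.59 for Cartpt (permutation p = 0.023, not adjusted), 0.27 for Npy, 0.26 for Tac2 and -0.0099 for Pomc.

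**Figure D4:**
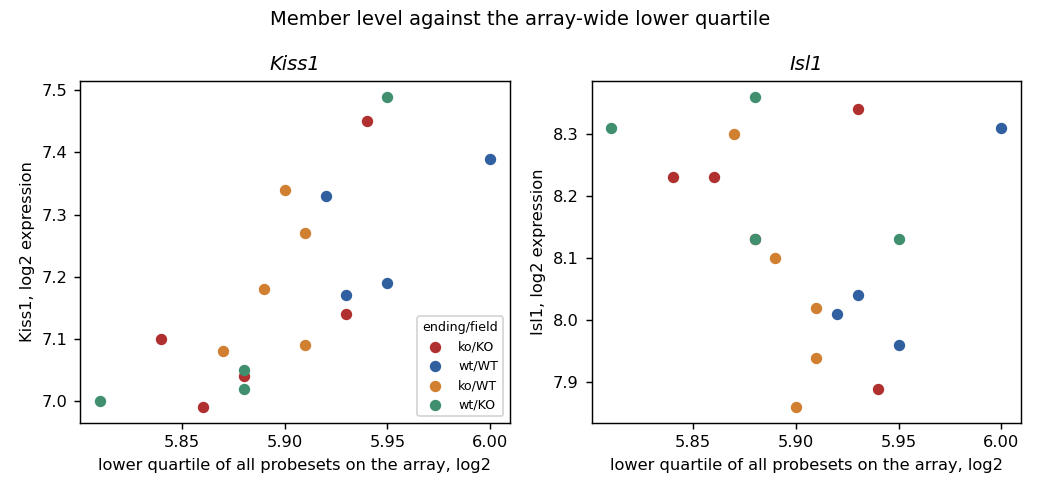
Log2 expression of Kiss1 and Isl1 (y axes) against the lower quartile of all probesets on the same array (x axes, log2), 1 point per array coloured by label group. Kiss1 is higher on arrays with a higher lower quartile (r = 0.74), and Isl1 shows r = -0.30.

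Npy had its strongest relation with the oligodendrocyte list, r = -0.66 and rho = -0.60 (permutation p = 0.0030 and 0.011), which did not pass after adjustment (adjusted p = 0.073 and 0.128). All 13 genes had a negative r, from -0.79 for Fa2h, which hydroxylates myelin lipids, to -0.13 for Olig2, and r was -0.55 without the 2 arrays farthest from the list's median. The list's sum ran from 123.58 to 127.6 with the ending ko and from 120.92 to 126.95 with wt. Npy also had r = 0.57 with tanycyte and ependymal markers and 0.48 with markers of other hypothalamic nuclei, and neither passed (adjusted p = 0.139 and 0.304).

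Cartpt and Isl1 had r = 0.59 and 0.60 with the genes of other arcuate neurons (adjusted p = 0.139 for both, permutation tests), and for Cartpt r was 0.15 without wt/WT 1 and wt/KO 1. This list had r = 0.71 with the array SD. With the array SD removed the values were 0.70 for Cartpt (adjusted p = 0.026) and 0.51 for Isl1 (adjusted p = 0.261), and the part of the array SD was not tested further. All 15 of these genes had a positive r with Cartpt, led by Crabp1 at 0.67, and 13 of 15 with Isl1, led by Asb4 at 0.63. Pomc had r = -0.56 with striatal markers (adjusted p = 0.139), and -0.26 without the 2 arrays farthest from that list's median. Tac2 had r = 0.56 with cortical and hippocampal markers (adjusted p = 0.139). With the thalamic list r was -0.47 for Cartpt and 0.40 for Tac2, and with choroid plexus markers 0.44 for Kiss1, where rho was 0.74 (permutation p = 0.00072, adjusted p = 0.017). In bulk tissue fewer cells of a type and less RNA per cell cannot be told apart.

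**Figure D5:**
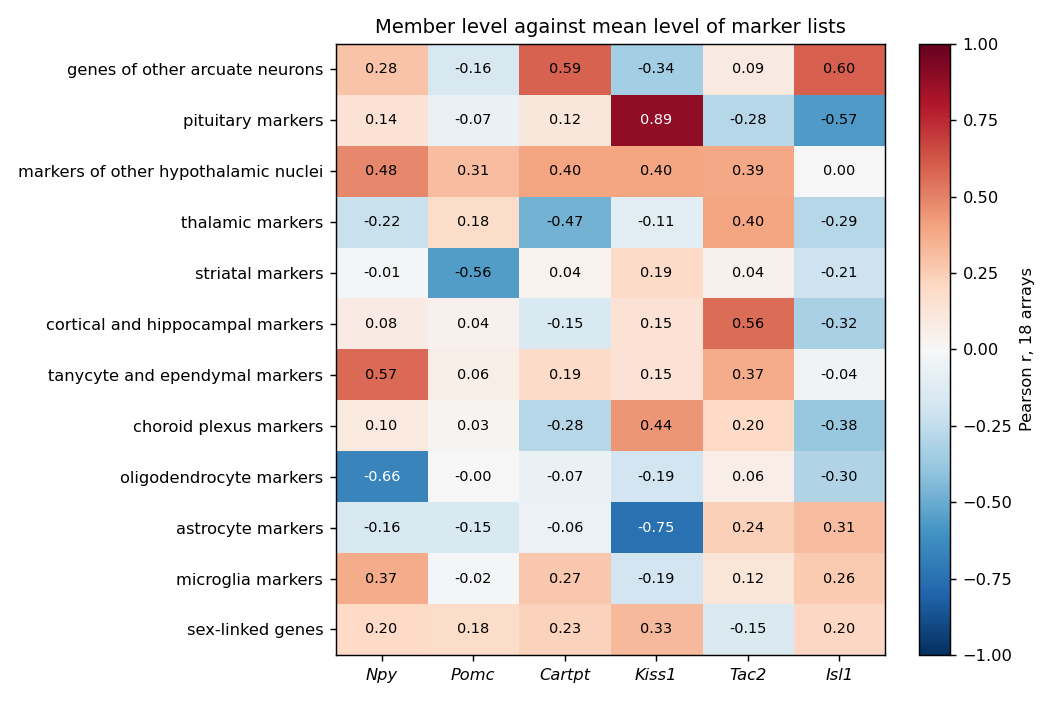
Pearson correlation over 18 arrays between each gene (x axis) and the mean log2 level of each marker list (y axis), printed in each cell and shown by colour from -1 (blue) to 1 (red). Only the cells of Kiss1 with pituitary (0.89) and astrocyte markers (-0.75) passed after adjustment over the 72.

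The genes most like each member over the 18 arrays were chosen for their r, which is therefore a description with no test. Tac2 was closest to Zic4, a zinc finger factor of the dorsal midline, with r = 0.89 (rho = 0.89), to Lsp1, an actin-binding protein gene, with 0.89 and to Cbln2, a synaptic organiser, with 0.88. Cartpt was closest to Rpl38, a ribosomal protein gene, with 0.87, to Zfp947 with 0.85 and to the cyclin gene Ccnd3 with 0.82. Npy was closest to Potegl with 0.83, to Rcn1 with 0.77 and to Ankrd39 with 0.77, and Pomc to Hps4 with 0.73, Rac3 with 0.71 and Tmem200c with 0.71. Of these, Potegl lay at only 3.98 to 4.8 log2 units and Zfp947 at 5.0 to 5.99, beside array lower quartiles of 5.81 to 6.0.

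Kiss1 had more genes of like pattern than any other member. Kiss1 was closest to Zdhhc12 with r = 0.94, Klf14 with 0.93 and Col2a1 with 0.93, whose own r with the array SD was -0.60, -0.56 and -0.72. An r of at least 0.7 to Kiss1 occurred for 1453 genes (7.29%) and an r of -0.7 or less for 1295 (6.50%). For Isl1 these counts were 118 (0.59%) and 54 (0.27%), with AW551984 at 0.86, Hook1 at 0.85 and Rad23b at 0.85 the closest. For Tac2 the counts were 85 (0.43%) and 6 (0.030%) and for Cartpt 29 and 29 (0.15% each). They were 11 (0.055%) and 16 (0.080%) for Npy and 4 (0.020%) and 7 (0.035%) for Pomc.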

How the data were processed

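The authors deposited 1 table of log2 expression values for 34760 probesets on 18 arrays. The values, 1.11 to 14.54, show a log2 scale. Per the labels' protocols, Trizol RNA of dissected hypothalamus was labelled with a whole-transcript assay, and RMA and MAS5 are named, without role, per the submitters' processing notes. Array normalization of that kind removes most difference in total signal. Scanner files were not analysed here, so detection and scan batches were not examined, and the number of arrays limits the precision. The platform annotation gave 1 gene for 21640 probesets, several for 1321 and none for 11799. The brightest probeset was used for each of 19937 genes. Differences were fitted over all of them with limma 3.58.1 in R 4.3.3, with Benjamini-Hochberg adjustment, and the script was tested on simulated data. Correlations used two-sided permutation tests with 100000 resamples, exact for fewer than 10 arrays, in numpy 2.4.6. The members and the lists were chosen with earlier results of these data known. The text names the members, Wfs1, the 3 genes of highest r to each member and, for each list, up to 2 genes of smallest p by title ending, predicted genes passed over in the likeness ranking. Other single markers quoted beside a list were picked once their values were known. The alternatives were quantile normalization, dropping the dimmest 40% of genes, probeset means, the other label as covariate, leaving out arrays, centring within label groups and removing the array SD.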

Additional observations from a re-analysis of the deposited data

Results flagged for a closer look

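In 48 combinations of a gene with a label group, 6 held an array far from the rest of its group by Dixon's ratio at the 95% level, where chance flags about 1 in 20 groups. The groups overlap, each array standing in several, so no number expected by chance can be set against the 6. Kiss1 was 7.49 on wt/KO 4 against 7.05 on the nearest of the 4 arrays of that group. Pomc was 7.95 on ko/KO 2, with 7.63 the next among the 10 arrays with the ending ko, and 7.98 on wt/KO 3, with 7.61 the next among the 8 with the ending wt. Cartpt was 8.77 on wt/WT 1, with 9.32 the next among those with the ending wt. Npy was 8.69 on ko/KO 1, with 9.32 the next among the 9 arrays of field KO. Isl1 was 7.89 on ko/KO 2, with 8.13 the next in the same group. No test of a difference between field KO and field WT in the effect of the ending passed for any of the 6 genes (adjusted p from 0.940 to 0.987).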

How the results depend on the processing

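No paired analysis was possible because the labels number no replicates within groups and each number in the titles occurs on a single array, so none is shared between groups. The count of genes called by limma stayed at 0 in the comparisons by ending, by field and on agreeing arrays under every alternative run, and so did the count of member pairs and of relations with Wfs1. The 2 marker list relations called became 1 after quantile normalization and 1 without the 2 arrays farthest from each list's median. Leaving out 1 array gave from 1 to 4, with 4 without wt/WT 1, when Npy with oligodendrocyte (r = -0.75, adjusted p = 0.014) and Cartpt with thalamic markers (r = -0.69, adjusted p = 0.044) were added, and 1 without ko/KO 2 or wt/WT 2. Small values changed sign, none of them past the threshold. By ending, Npy was 0.031 and Xist 0.013 without the arrays low in Xist and high in Ttr, and on agreeing arrays Npy was -0.015 after quantile normalization. Leaving out 1 array gave by ending -0.11 to 0.059 for Npy, -0.088 to 0.020 for Pomc, -0.052 to 0.088 for Cartpt, -0.068 to 0.0037 for Kiss1 and -0.51 to 0.030 for Xist. By field it gave -0.021 to 0.15 for Npy and -0.13 to 0.0035 for Tac2, and on agreeing arrays -0.13 to 0.22 for Npy and -0.033 to 0.11 for Pomc. Without 1 array the r of Npy and Tac2 ran from -0.27 to 0.15, of Cartpt and Tac2 from -0.13 to 0.18, of Cartpt and Isl1 from -0.013 to 0.23, of Kiss1 and Tac2 from -0.30 to 0.0077, of Pomc and Cartpt from -0.27 to 0.082, of Pomc and Isl1 from -0.21 to 0.12 and of Pomc and Kiss1 from -0.37 to 0.14. After quantile normalization Npy and Tac2 had r = -0.015, Cartpt and Tac2 -0.024, Isl1 with Wfs1 below 8.2 0.016 and Npy with Wfs1 above it 0.0014. By rho Npy and Tac2 had -0.12, Pomc and Isl1 0.090 and Cartpt and Tac2 -0.025. Centred within label groups, the Pomc and Kiss1 r was 0.0091, that of Npy and Tac2 -0.0065, of Cartpt and Tac2 -0.019 and of Cartpt and Isl1 -0.11. On agreeing arrays Npy and Pomc had 0.0096, Pomc and Cartpt 0.22, Pomc and Kiss1 0.53 and Kiss1 and Tac2 0.077. On contradicting arrays Npy and Tac2 had -0.34, Pomc and Isl1 0.28 and Cartpt and Tac2 -0.20. Without the 2 arrays farthest from the median of the gene named first, Npy and Tac2 had -0.26, Pomc and Tac2 -0.028, Pomc and Isl1 0.22 and Cartpt and Tac2 -0.18. Cartpt and Tac2 had -0.019 with the array SD removed, and Npy and Tac2 -0.029 without the arrays low in Xist and high in Ttr. With the array SD removed, chosen after seeing the data, 3 list relations passed, Kiss1 with pituitary markers, Npy with oligodendrocyte markers (r = -0.72, adjusted p = 0.021) and Cartpt with the genes of other arcuate neurons (r = 0.70, adjusted p = 0.026). The cause of these changes was not tested. Levels near the array medians, as for Kiss1, or not far above them, as for Pomc, may lie close to background, which could not be examined.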
